A study of Mus musculus with 12 samples.

Results

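Genes that attach the ends of meiotic chromosomes to the nuclear envelope were examined in peak lists of the chromatin remodeller INO80 and of the histone variant H2A.Z from mouse spermatogenic cells. The 5 genes were Terb1, Terb2, Majin, Sun1 and Speedya, listed by their role from 21887 protein-coding genes. Speedya is held under the symbol Spdya in RefSeq. For each gene, peaks over the gene body and 5 kb on both sides were recorded.

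Cells were isolated from testes of mice of mixed background at postnatal day 18. H2A.Z was precipitated from Ino80cKO cells, where Stra8-Cre deletes Ino80 in the testis, and from Ino80WT cells, and INO80 itself from wild-type cells. Stra8 is switched on in germ cells before meiosis, so this driver is not meant to delete the gene in somatic cells, and the labels do not give the Cre status of the Ino80WT animals. Each of these 3 ChIP groups, like each of the 3 matching input groups, had 2 libraries, and each ChIP group is represented by a single peak list. The lists held 18139 INO80 peaks, 26199 H2A.Z peaks in Ino80cKO and 33827 H2A.Z peaks in Ino80WT. They give positions alone, without scores, read depths or values per library, so no width or presence below has a replicate error and no test over samples could be made. Whether a peak is listed also depends on an unknown depth and threshold, and the knockout list is the shorter of the H2A.Z lists. Peaks do not measure transcripts, so the cell type could not be checked by marker levels. INO80 lay within 1 kb of the start of 6 of 7 germ cell markers, 3 of 5 Sertoli cell, 1 of 5 Leydig cell, 1 of 3 peritubular myoid cell and 0 of 3 macrophage markers, against 55.9% of all protein-coding genes.

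In meiotic prophase, telomeres are tethered to the inner nuclear membrane so that cytoskeletal motors outside the nucleus can move chromosomes while homologues find each other. TERB1 binds the shelterin protein TRF1 at telomeres, TERB2 joins TERB1 to MAJIN, and MAJIN is anchored in the inner nuclear membrane. SUN1 spans that membrane and connects through KASH5 to dynein, and Speedy A, the product of Speedya, activates the kinase CDK2 at telomeres. H2A.Z nucleosomes typically flank the nucleosome-poor stretch at a gene start, and the INO80 complex is able to remove or exchange H2A.Z.

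The 4 promoter windows below are shown because they carry the different arrangements of H2A.Z found at these genes. Each runs 5′ to 3′ on the strand of its gene, from 250 bases before the start to 50 after it, and was taken from RefSeq on GRCm38.p6, the assembly that mm10 names. Capitals mark bases under an H2A.Z peak of the Ino80WT list. Windows were held for 3 of the 5 genes. Terb2 and Majin had none, and the window of Patl2, whose start lies 83 bp below the lower-coordinate end of Terb2, is shown because it spans that end.
Terb1, minus strand, chr8:104509838-104510137: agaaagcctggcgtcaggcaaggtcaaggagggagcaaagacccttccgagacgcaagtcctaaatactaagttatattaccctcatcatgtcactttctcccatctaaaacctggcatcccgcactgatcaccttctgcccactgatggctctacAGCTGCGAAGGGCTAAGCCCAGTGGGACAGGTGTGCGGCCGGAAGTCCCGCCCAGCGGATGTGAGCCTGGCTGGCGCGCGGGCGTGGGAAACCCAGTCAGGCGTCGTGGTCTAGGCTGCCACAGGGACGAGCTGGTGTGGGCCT
Sun1, plus strand, chr5:139200387-139200686: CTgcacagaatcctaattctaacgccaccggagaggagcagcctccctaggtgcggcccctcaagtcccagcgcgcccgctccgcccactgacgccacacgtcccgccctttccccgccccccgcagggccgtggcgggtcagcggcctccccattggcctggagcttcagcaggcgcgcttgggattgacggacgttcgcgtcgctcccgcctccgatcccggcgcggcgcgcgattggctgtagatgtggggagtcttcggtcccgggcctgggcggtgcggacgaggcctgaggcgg
Speedya, plus strand, chr17:71551811-71552110: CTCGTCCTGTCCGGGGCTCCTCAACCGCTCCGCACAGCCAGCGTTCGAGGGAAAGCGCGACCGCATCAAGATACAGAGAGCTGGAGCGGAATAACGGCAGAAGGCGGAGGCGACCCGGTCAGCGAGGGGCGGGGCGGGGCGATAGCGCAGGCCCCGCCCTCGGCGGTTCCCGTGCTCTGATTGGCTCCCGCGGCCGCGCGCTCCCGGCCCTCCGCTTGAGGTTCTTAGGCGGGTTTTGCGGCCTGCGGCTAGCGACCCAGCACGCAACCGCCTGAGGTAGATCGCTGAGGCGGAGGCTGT
Patl2, minus strand, chr2:122186140-122186439: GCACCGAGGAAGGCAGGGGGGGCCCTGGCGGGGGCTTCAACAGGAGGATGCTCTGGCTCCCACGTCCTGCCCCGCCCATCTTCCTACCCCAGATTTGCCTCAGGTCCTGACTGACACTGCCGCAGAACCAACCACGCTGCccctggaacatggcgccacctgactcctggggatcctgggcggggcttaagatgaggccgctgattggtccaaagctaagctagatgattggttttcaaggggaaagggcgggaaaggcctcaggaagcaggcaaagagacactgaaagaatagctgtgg

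The arrangements differ from gene to gene. The Speedya window lay under H2A.Z over all 300 bases, whereas in the Sun1 window 2 bases did. In the Terb1 window 144 bases around and upstream of the start were covered in Ino80WT. In Ino80cKO 179 bases of that window were covered. In the Patl2 window 140 bases, all of them within Terb2, were covered in Ino80WT and 0 in Ino80cKO. The windows also differed in CpG content, with ratios of observed to expected CpG of 1.05 for Speedya, 0.95 for Sun1, 0.61 for Terb1 and 0.36 for Patl2.

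Peaks of all 3 lists were present over 4 of the 5 genes, namely Terb1, Majin, Sun1 and Speedya. Over all protein-coding genes with the same flanks, 60.6% had peaks of all 3 lists. INO80 was present at 4 of 5 genes (63.3% of all genes), H2A.Z of Ino80cKO at 4 of 5 (70.1%) and H2A.Z of Ino80WT at 5 of 5 (73.6%). These shares lie near the background for so few genes. The exception was Terb2, which had no INO80 and no Ino80cKO H2A.Z peak. An H2A.Z region with a peak in Ino80WT alone was found at 1 of 5 genes (20.5% of all genes), and a region with a peak in Ino80cKO alone at 0 of 5 (5.03%).

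The windows held 8 INO80 peaks, 8 Ino80cKO H2A.Z peaks and 9 Ino80WT H2A.Z peaks. All 8 INO80 peaks overlapped H2A.Z peaks of both genotypes, as did 76.3% of INO80 peaks in the whole list. The INO80 peaks were 164 to 987 bp wide, and 3 of 8 exceeded the list's median of 678 bp. H2A.Z peaks were 198 to 1029 bp wide in Ino80cKO, with 6 of 8 above the median of 422 bp. In Ino80WT they were 212 to 1167 bp wide, with 6 of 9 above the median of 460 bp. The peaks were gathered at gene starts and annotated ends, and none lay in the interior of Terb1, Terb2, Majin or Sun1 away from an end.

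**Figure D1:**
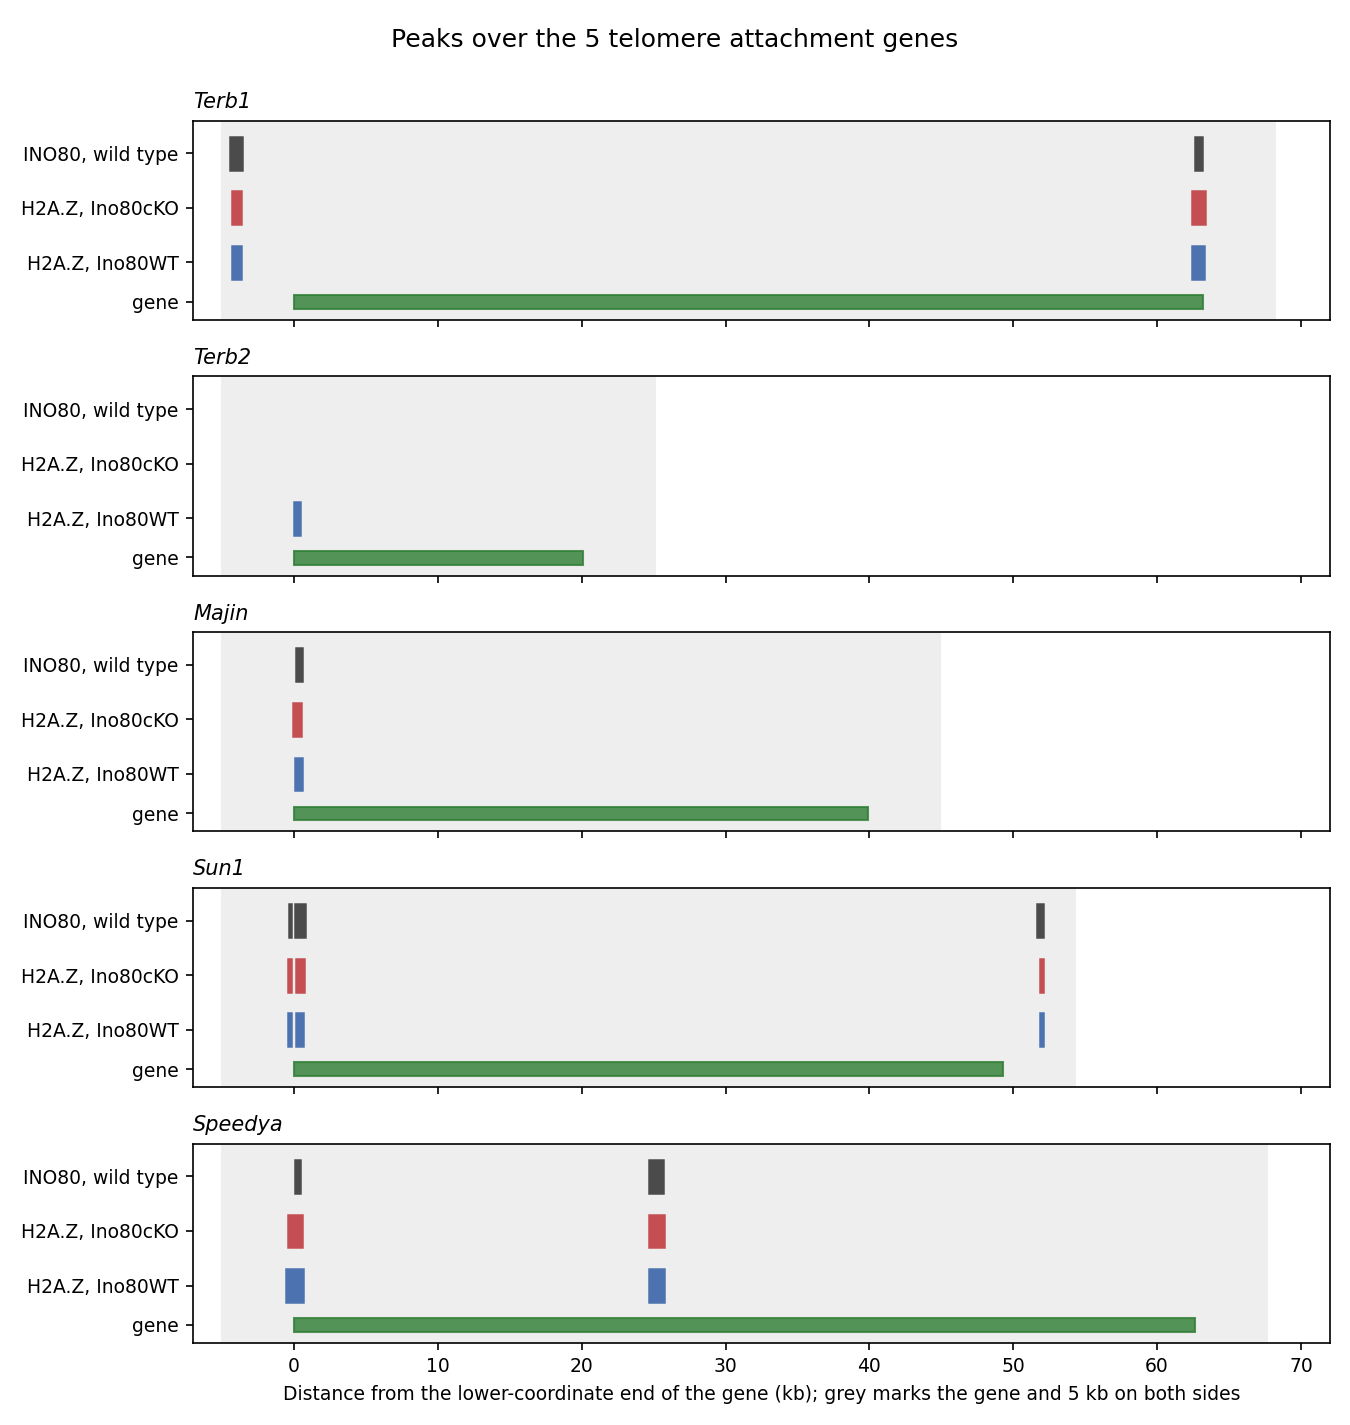
Peaks over each gene and 5 kb on both sides, drawn as bars against the distance in kb from the lower-coordinate end of the gene, for INO80, H2A.Z in Ino80cKO and H2A.Z in Ino80WT, with the gene in green. Terb2 carries a single bar, from Ino80WT, whereas the other genes carry bars of all 3 lists at the same places.

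Of the chromosome-side pair, Terb1 held peaks of all 3 lists at its start. The gene lies on the minus strand of chromosome 8 (104446718 to 104509887, 63170 bp), with its start at 104509887. INO80 covered 516 bp within the gene (104509347 to 104509862), from 25 to 540 bp downstream of the start, and did not reach the start itself. Of all starts with an INO80 peak within 1 kb, 21.3% had it downstream alone, while 68.8% lay under one. H2A.Z spanned the Terb1 start in both genotypes, with 878 bp in Ino80cKO (104509139 to 104510016) and 812 bp in Ino80WT (104509170 to 104509981). The Ino80cKO peak held the whole Ino80WT peak and went beyond it by 35 bp upstream and 31 bp downstream. The INO80 peak lay inside both.

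The flank beyond the other end of Terb1 reaches a neighbour. Dync1li2, a light intermediate chain of the dynein motor, ends 3668 bp below Terb1, and the peaks there lay at that annotated end. They spanned 866 bp for INO80, 590 bp for H2A.Z in Ino80cKO and 604 bp for H2A.Z in Ino80WT. This neighbour was the only source of peaks in the Terb1 window apart from the start of Terb1.

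Terb2, the link between TERB1 and MAJIN, was the member with the fewest peaks, and with 5 kb flanks and the full lists its H2A.Z coverage differed most between genotypes. The gene lies on chromosome 2 (122186272 to 122206393, 20122 bp). Its window held no Ino80cKO H2A.Z peak and 1 Ino80WT H2A.Z peak of 391 bp (122186300 to 122186690), which began 28 bp inside the lower-coordinate end of the gene. At 391 bp the peak stood at the 43.4th percentile of width in its list. The nearest Ino80cKO H2A.Z peak lay 13185 bp beyond the other end of Terb2, and the nearest INO80 peak 13400 bp beyond it. Because the start of Patl2 on the minus strand lies 111 bp from the first base of the peak, the peak cannot be assigned to Terb2 rather than to Patl2 by position.

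A wild-type peak of this kind without a knockout partner was not rare. Among 772 Ino80WT H2A.Z peaks of 300 to 500 bp that lay at a gene start without INO80, 19.8% had no overlapping Ino80cKO peak. Over all protein-coding genes, 3.72% had H2A.Z within 1 kb of a start in Ino80WT and none in Ino80cKO. The Ino80cKO list is the shorter one. Cutting the Ino80WT list to that length left the Terb2 difference at -391 bp. That cut drops peaks under 239 bp and so could not remove this peak. The part of list length in the absence at Terb2 was not tested.

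Majin, the membrane anchor, held INO80 and H2A.Z of both genotypes at its lower-coordinate end and nowhere else. The gene lies on chromosome 19 (6184345 to 6224230, 39886 bp). INO80 covered 376 bp (6184512 to 6184887), beginning 167 bp inside the gene. H2A.Z covered 549 bp in Ino80cKO (6184305 to 6184853) and 488 bp in Ino80WT (6184382 to 6184869). The Ino80cKO peak crossed the annotated end by 40 bp, while the Ino80WT peak began 37 bp inside it. The centres differed by -46.5 bp in coordinate (Ino80cKO minus Ino80WT), so the outlines differed in position as well as in width. Of the 376 bp of INO80, 342 bp lay under H2A.Z in Ino80cKO and 358 bp in Ino80WT.

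Sun1, the bridge to the cytoskeleton, had its start in a gap between flanking peaks in all 3 lists. The gene lies on the plus strand of chromosome 5 (139200564 to 139249839, 49276 bp), with a first start at 139200637. The gap measured 254 bp between INO80 peaks, 329 bp between H2A.Z peaks in Ino80cKO and 309 bp in Ino80WT. Peaks on both sides with the start in the gap were found at 3.89% of the starts that had INO80 within 1 kb, at 10.6% of those with H2A.Z in Ino80cKO and at 9.13% of those with H2A.Z in Ino80WT. The Sun1 promoter window shown above thus lies almost wholly between H2A.Z peaks.

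On the upstream side of Sun1 the peaks were narrow, with 164 bp of INO80 (139200223 to 139200386), 222 bp of H2A.Z in Ino80cKO and 225 bp in Ino80WT. Downstream of the start they were wider. INO80 covered 704 bp (139200641 to 139201344), beginning 4 bp after the start. H2A.Z covered 574 bp in Ino80cKO (139200706 to 139201279) and 493 bp in Ino80WT (139200698 to 139201190). The far edge of the downstream H2A.Z peak lay 89 bp deeper in the gene in Ino80cKO, and its near edge 8 bp deeper. A second annotated start of Sun1, 14521 bp further on, had no peak of any list within 1 kb. The window also held peaks at the start of Get4, which lies 2485 bp beyond Sun1 and encodes a factor for inserting tail-anchored membrane proteins. There INO80 covered 393 bp, H2A.Z 198 bp in Ino80cKO and 212 bp in Ino80WT.

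Speedya, the kinase activator, had the widest peaks among the members. The gene lies on the plus strand of chromosome 17 (71526895 to 71589533, 62639 bp), and the start in the promoter table, at 71552061, lies 25166 bp inside the annotated gene. At that start the lists nearly coincided. INO80 covered 987 bp (71551590 to 71552576), H2A.Z 1029 bp in Ino80cKO (71551567 to 71552595) and 1008 bp in Ino80WT (71551584 to 71552591). Each peak lay over the start, and the INO80 peak lay wholly under H2A.Z in both genotypes. The Ino80cKO peak went beyond the Ino80WT peak by 17 bp upstream and 4 bp downstream.

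The lower-coordinate end of Speedya lies 38 bp from the start of Ndc80, a kinetochore gene on the minus strand. The H2A.Z peak there was narrower in the knockout list, with 954 bp in Ino80cKO (71526472 to 71527425) and 1167 bp in Ino80WT (71526336 to 71527502). It was drawn in on both sides, by 136 bp on the Ndc80 side and by 77 bp on the Speedya side. INO80 covered 353 bp (71526977 to 71527329), all of it within Speedya and under H2A.Z in both genotypes. Whether these peaks belong to Ndc80 or Speedya cannot be told apart by position.

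**Figure D2:**
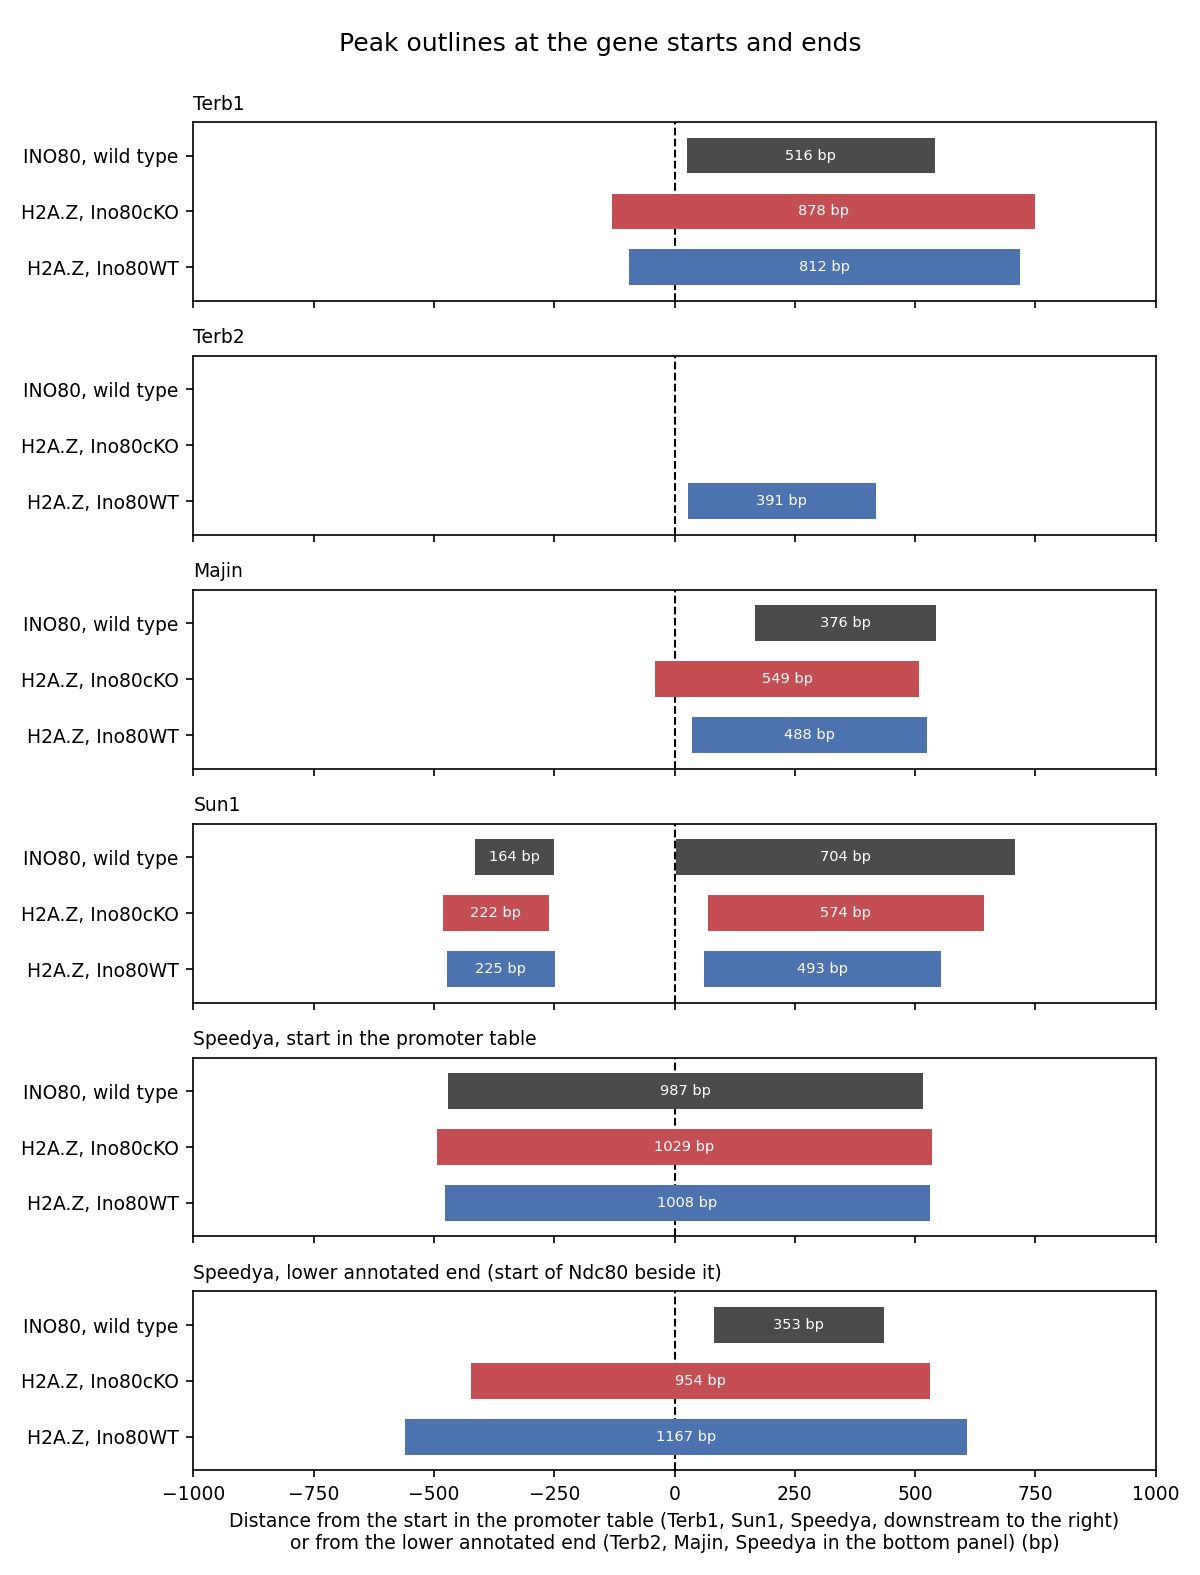
Outlines of INO80, Ino80cKO H2A.Z and Ino80WT H2A.Z peaks within 1 kb of the start in the promoter table (Terb1, Sun1, Speedya) or of the lower annotated end (Terb2, Majin, and Speedya in the bottom panel), in bp, with widths printed in the bars and the start or end as a dashed line. The start of Sun1 falls in a gap in all 3 lists, that of Speedya lies under all 3, and that of Terb1 lies under H2A.Z but not under INO80.

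The genotype comparison asked how the H2A.Z outlines of these genes differ once Ino80 is deleted. H2A.Z peaks were slightly wider in Ino80cKO at the start of Terb1, at the lower end of Majin and on the downstream side of the Sun1 start. At Speedya they were slightly wider at the start inside the annotated gene and narrower at the lower end. Speedya lies on the plus strand, so that lower end is its annotated 5′ end. At Terb2 the Ino80cKO peak was absent. Of 6 shared regions nearest to a member's own start or end, 4 were wider in Ino80cKO, by 66 bp at Terb1, 61 bp at Majin, 81 bp downstream of the Sun1 start and 21 bp at the Speedya start. The other two were narrower, with differences of Ino80cKO minus Ino80WT of -3 bp upstream of the Sun1 start and -213 bp at the lower end of Speedya beside Ndc80. Of the 2 shared regions nearest to a neighbour's start or end, 0 were wider, with differences of -14 bp at Dync1li2 and -14 bp at Get4.

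In the whole lists, narrower Ino80cKO peaks were the rule. Among 22367 shared regions with 1 peak per genotype, 27.5% were wider in Ino80cKO, and at gene starts 29.0% of 12359 were. The median difference of Ino80cKO and Ino80WT widths was -73 bp, with the middle 50% of regions between -208 and 8 bp. The differences at Sun1 downstream, Terb1, Majin and Speedya stood at the 88.7th, 86.8th, 86.1st and 78.2nd percentiles of all shared regions, and that at the lower end of Speedya at the 24.3rd. The difference upstream of the Sun1 start stood at the 71.4th percentile, and those at the neighbours Dync1li2 and Get4 at the 67.8th. The neighbours' regions thus also lay above the median difference. All 4 gains are smaller than the narrowest peak in the lists, which is 147 bp, and without replicate values they cannot be set against an error. Nothing here shows that the members differ from other genes.

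Summed over each window, H2A.Z covered more sequence in Ino80cKO at 3 of the 4 genes with H2A.Z in both genotypes. Over all 15228 such genes, 20.9% had more in Ino80cKO. Terb1 had 1468 bp in Ino80cKO and 1416 bp in Ino80WT. Majin, whose only H2A.Z peak lies at its end, had 549 bp in Ino80cKO and 488 bp in Ino80WT. Sun1 had 994 bp in Ino80cKO and 930 bp in Ino80WT. Speedya was the reverse, with 1983 bp in Ino80cKO and 2175 bp in Ino80WT, and that deficit lay at the end shared with Ndc80. Without flanks the directions stayed as they were, with differences of 31 bp at Terb1, 21 bp at Majin, 81 bp at Sun1 and -56 bp at Speedya.

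**Figure D3:**
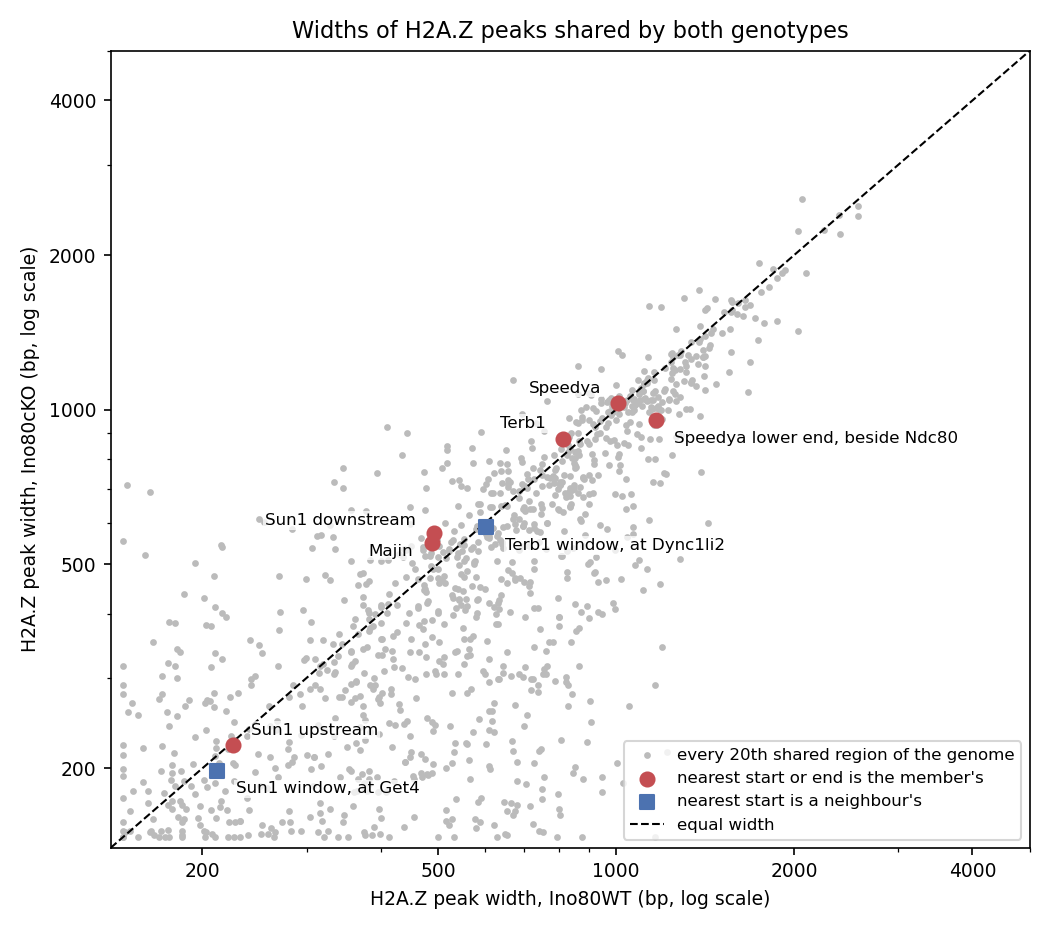
Width of shared H2A.Z peaks in Ino80cKO (vertical axis) against Ino80WT (horizontal axis), in bp on log scales, for every 20th shared region of the genome in grey and the 8 shared regions of the members in colour. Most grey points lie under the line of equal width, 4 of the 6 regions nearest to a member's start or end lie above it, and the 2 regions nearest to a neighbour lie below it.

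The promoter windows were searched on both strands for 8 short motifs, with positions counted from the start base as 0. The GC-rich SP/KLF motif GGGCGG was found in the windows of Terb1, Sun1, Speedya and Patl2, and in 35.7% of all 32851 windows of the table. In Speedya the matches at -124 to -119 and at -119 to -114 shared a base. The motif CNCCTCAG, bound by the meiotic initiators STRA8 and MEIOSIN, was found on the opposite strand at 41 to 48 in Sun1 and at 34 to 41 in Speedya, just after the start of each gene, and in 7.94% of all windows. The Sun1 match lay under INO80 and outside H2A.Z, and the Speedya match lay under all 3 peaks. The MYB motif CAACNG occurred in Speedya at -229 to -224 and at 14 to 19, and in Patl2 at -213 to -208, under the Ino80WT H2A.Z peak (35.0% of all windows). In the Patl2 window there was also a YY1 match, GCCATNTT, at -104 to -97 (6.05% of all windows) and an E2F match, TTCCCGC, at -2 to 4 (4.60%), which overlapped a GGGCGG match at -4 to 1. YY1 is a transcription factor that can bind the INO80 complex, but the YY1 match lay outside the peaks of all 3 lists. The Patl2 window held 0 bases under INO80. No match to AACNGTT, TGACGTCA (the CRE) or GTTGCCAT (an RFX motif) was present in the 4 windows. These matches are letters in a window and show no binding.

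A list of 43 other genes of telomere attachment and movement gave the surroundings of the members. Of these, 38 had INO80 in the gene or 5 kb on both sides (63.3% of all genes), and 42 had H2A.Z in both genotypes (69.6%). INO80 lay within 1 kb of a start at 32 of 43, against 55.9% of all protein-coding genes. A region with H2A.Z in Ino80WT alone was found at 7 of 43 genes and a region with H2A.Z in Ino80cKO alone at 4 of 43 (20.5% and 5.03% of all genes). Of the 42 genes with H2A.Z in both genotypes, 10 had more covered sequence in Ino80cKO, close to the share over all genes.

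By role, shelterin and telomere maintenance genes had H2A.Z at the start in both genotypes at 10 of 10 genes (60.2% of all genes) and INO80 at 7 of 10 (55.9%). The single-strand telomere binders Pot1a and Pot1b and the helicase gene Rtel1 had H2A.Z and no INO80 at the start. Tert, the telomerase reverse transcriptase, had a wide INO80 peak of 1767 bp. Among SUN and KASH genes INO80 was at the start of 4 of 9. It was absent from the start of Kash5, the meiotic partner of SUN1, which had H2A.Z peaks of 616 bp in Ino80cKO and 620 bp in Ino80WT. It was absent too from Sun3, Sun5, Syne3 and Syne4, of which Sun5 had no peak of any list in its window. Syne2, a giant KASH protein, had the widest INO80 peak at a start among the 43 genes, at 2155 bp.

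The lamina and inner membrane group held INO80 at 6 of 8 starts (55.9% of all genes). Lemd3 had a peak of 1846 bp, whereas Emd and the lamin-processing protease gene Zmpste24 had none. Emd was the only gene with H2A.Z at the start in Ino80cKO alone, in a peak of 271 bp. Its window also held an Ino80WT peak, which covered 280 bp in a separate region more than 1 kb from the start. Lemd2 was the only one with H2A.Z within 1 kb of its annotated ends in Ino80WT alone, and its 918 bp peak there was joined to an Ino80cKO peak just outside that distance. Kinases and cyclins had INO80 at 6 of 6 starts (55.9% of all genes), including Cdk2, the partner of Speedy A, with 632 bp. Ccne2, a cyclin E gene without a promoter window, had a 2029 bp peak that reached within 1 kb of an annotated end. Dynein motor and adaptor genes had INO80 at 9 of 10 starts (55.9% of all genes), with Dctn1 the exception. Dctn1 also had no H2A.Z at its start in either genotype. Away from that start, its window held 3 INO80 peaks and H2A.Z over 1983 bp in Ino80cKO and 1751 bp in Ino80WT.

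Of the 43 pathway genes, those most like each member in covered sequence around the start were found by Euclidean distance over log2(covered bp + 1) in the 3 lists. Speedya lay nearest to Ccne2, at a distance of 0.14, with 1032, 1035 and 1095 bp of INO80, Ino80cKO H2A.Z and Ino80WT H2A.Z at Ccne2. Sun2 came next, at 0.23, with 1010, 879 and 1044 bp in the same order. Terb1 lay nearest to the shelterin gene Terf1 (0.27), whose product TERB1 binds, and to Spag4 (0.29). Majin lay nearest to the shelterin gene Tinf2 (0.43) and to Dync1i2 (0.61), and Sun1 to Syne1 (0.44) and Dync1li2 (0.50). Terb2 had no close counterpart among the 43, where its nearest gene, Lemd2, lay at 7.33. Dctn1 lay at 8.61, with 0 bp at its start in all 3 lists. Sun5, Syne3 and Syne4 also had 0 bp there in all 3 lists and so lay equally near. Genes outside the list were not compared. The measure compares covered sequence clipped to 1 kb on both sides of a start or annotated end in 3 lists, and nothing more. Whole peaks were not compared. The INO80 peak at Ccne2 was 2029 bp wide, and of the 1351 bp INO80 peak at Lemd2 only 99 bp counted.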

How the data were processed

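Chromatin was cut with micrococcal nuclease, per the labels' protocols. How closely the peak outlines follow nucleosomes was not examined. The authors deposited 1 peak list per ChIP group, with chromosome, start and end and no score. The submitters' processing notes name Bowtie2, SAMtools, deepTools and MACS2 and the mm10 build. The peak threshold, its control and how libraries were pooled are, in the sources used here, not given. From the labels it cannot be read whether replicate libraries stem from separate animals, and the input libraries were not used here.

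Gene positions and promoter windows came from RefSeq on GRCm38.p6. Starts are those of the promoter window table or, for the 20.1% of genes without a window, both annotated ends. Exons and introns were not used. H2A.Z peaks of both genotypes that overlapped by at least 1 bp were joined into regions, and covered sequence was clipped to the window. Each peak or region was assigned to the start nearest to its centre, with both annotated ends of the members counted as well. Shares over all protein-coding genes stand beside the members' counts and are not matched for gene length.

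The members and lists were chosen with earlier results of these data known. Pathway genes named are those without INO80 at the start, those with H2A.Z there in 1 genotype, the 4 with the widest INO80 peak at the start, and the 2 nearest to each member in covered sequence. Cdk2 was named as the partner of Speedy A after its value was seen. Alternatives were other flanks, stricter lists and a larger overlap. Overlap counts were checked against bedtools 2.31.1, equal for 6 of 6 pairs of lists, and the joining was tested on simulated data, where 5500 of 5500 regions fell in the class they were made with. Scripts ran in Python 3.11.15 with pandas 2.3.3, numpy 2.4.6 and matplotlib 3.10.9.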

Additional observations from a re-analysis of the deposited data

How the results depend on the processing

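Of 61 values recomputed under other settings, 49 moved by less than 1.5 times and 12 by more, with no change of sign. With 10 kb flanks the Speedya difference, Ino80cKO minus Ino80WT, was -425 bp and 13 pathway genes had an Ino80WT-only region. Without flanks the differences were 31 bp at Terb1, 21 bp at Majin and -56 bp at Speedya, and 2 pathway genes had such a region; peaks that cross an annotated end are cut there. With the widest 50% of each list, 0 members had an Ino80WT-only region and the Terb2 difference was 0 bp, because its 391 bp peak is under the 460 bp kept, and 20 pathway genes held INO80. With the Ino80WT list cut to the length of the Ino80cKO list, which drops peaks under 239 bp, 1 member had an Ino80cKO-only region and the Sun1 difference was 501 bp, since the narrow Ino80WT peaks of Sun1 and Get4 were dropped, and 4 pathway genes had an Ino80WT-only region. Under that cut the Terb2 difference stayed at -391 bp. No paired analysis was possible because each ChIP group is a single peak list, and for the same reason no library could be left out. The unknown depth limits every statement on an absent peak.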

Other observations

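Beyond the 5 kb flank of Speedya lay a further H2A.Z peak present in both genotypes, on chromosome 17 within 10 kb of the gene. It spanned 889 bp in Ino80cKO (71598256 to 71599144) and 1122 bp in Ino80WT (71598107 to 71599228), without an INO80 peak in that stretch. Terf2, which encodes the shelterin protein TRF2, had an H2A.Z peak of 943 bp in Ino80cKO and of 570 bp in Ino80WT at its start. Terf2 was picked out after its values were seen. Of the 10 shelterin and telomere maintenance genes, 2 had more covered H2A.Z in Ino80cKO over their windows. Over all genes with H2A.Z in both genotypes the share was 20.9%.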
